A study of Mus musculus with 10 samples.

Results

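The genes described here encode the nuclear subunits of oxidative phosphorylation. They were picked out by symbol, as the Nduf genes of the a, b, c, s and v classes, Sdha to Sdhd, the Uqcr genes, the Cox4 to Cox8 genes and the Atp5 genes, without Ndufa4l2. The symbol rule uses no measured value, but it was set with earlier results of these data known. It gave 81 of the 17919 genes in the tables, of which 35 belong to complex I, 4 to complex II, 8 to complex III, 17 to complex IV and 17 to complex V. The 17 of complex V include Atp5s and Atp5sl, which are named for it without being its subunits. Of these 81 genes, 80 reached a value of 1 in at least 1 library. The other, Cox7b2, a testis form of a complex IV subunit, was listed under 1 in all 6 libraries. The subunits encoded by mitochondrial DNA were not analysed here.

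In mitochondria, complexes I and II pass electrons from NADH and succinate to ubiquinone, complex III passes them on to cytochrome c, and complex IV passes them to oxygen. Complexes I, III and IV pump protons across the inner membrane, and complex V, the ATP synthase, makes ATP from the proton gradient. Dividing neural progenitors draw much of their ATP from glycolysis, and neurons draw most of theirs from oxidative phosphorylation.

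The cells were neural stem cells (NSCs), taken at embryonic day 10 from the ventral midbrain of ICR mice. They carried a lentivirus expressing Lin28a, an RNA-binding protein that blocks maturation of let-7 microRNAs and also binds mRNAs, or a mock control virus, and were passaged every 4 days. Poly(A) RNA was sequenced for Lin28a at passage 3 (P3), control at P3, Lin28a at passage 1 (P1) and control at P1, and polysome RNA, meaning mRNA that sediments with several ribosomes, for Lin28a and control at P3. Each of these 6 groups was 1 library, so no test was possible, no error can be given, and every difference below describes those libraries alone. The sources used here give neither the promoter of the virus nor the number of embryos or cultures behind a library.

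The transgene followed the labels. Lin28a stood at 104 FPKM (fragments normalised for gene length and sequencing depth) in P3 Lin28a cells and 0.0620 FPKM in P3 control cells, at 478 FPKM in P1 Lin28a cells and 0.128 FPKM in P1 control cells, and at 17.9 RPKM (reads normalised likewise) in Lin28a polysomes, with control polysomes at their listed floor. Markers of other cell types moved with passage and with virus. All 8 astroglial markers were higher at P3 than at P1 in both cultures, with summed levels of 1981 FPKM in P3 Lin28a and 4388 in P3 control, and of 272 in P1 Lin28a and 346 in P1 control cells, and all 8 were lower in Lin28a than in control cells at P3. The 8 oligodendrocyte markers summed to 991 FPKM in P3 Lin28a and 1669 in P3 control, and to 101 in P1 Lin28a and 168 in P1 control cells, and the 8 neuronal markers to 441, 264, 852 and 1021 FPKM in the same order. The 8 NSC markers were detected throughout, with sums of 4240, 6150, 3176 and 3488 FPKM in that order. Single NSC markers were divided, with 5 higher and 3 lower at P3 than at P1 in each culture. Between Lin28a and control at P3, 5 were higher and 3 lower in Lin28a, with a median log2 ratio of 0.19 despite the smaller sum. The 5 microglial markers were under 1 in every library. The 5 ventral midbrain markers were all lower at P3 than at P1 in both cultures, with sums of 38.0 FPKM in P3 Lin28a and 14.9 in P3 control, and of 127 in P1 Lin28a and 137 in P1 control cells. The part of these markers in the differences below was not tested, and in such bulk libraries fewer cells of a type and less RNA per cell cannot be told apart.

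The subunit genes were among the most abundant mRNAs of these cells. They made up 3.73% of the summed FPKM of all genes in P3 Lin28a cells, 4.16% in P3 control cells, 3.09% in P1 Lin28a and 3.15% in P1 control cells, and 3.59% of the summed RPKM in Lin28a and 3.81% in control polysomes. Their median level was 170.1 FPKM in P3 Lin28a and 208 in P3 control, and 118 in P1 Lin28a and 124 in P1 control cells. In RNA, 69 to 74 of the 81 stood in the top 10% of all genes, and in polysomes 64 did so in Lin28a and 62 in control. The highest levels belonged to complexes IV and V. Cox6b1, a subunit that helps join cytochrome c oxidase into dimers, reached 1016 FPKM in P3 control cells, and Atp5b, the catalytic beta subunit of the ATP synthase, 979 FPKM. The order of the genes by level was close in the 4 RNA libraries, with Spearman's rho from 0.959 to 0.993 over 81 genes, as a description across genes.

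**Figure D1:**
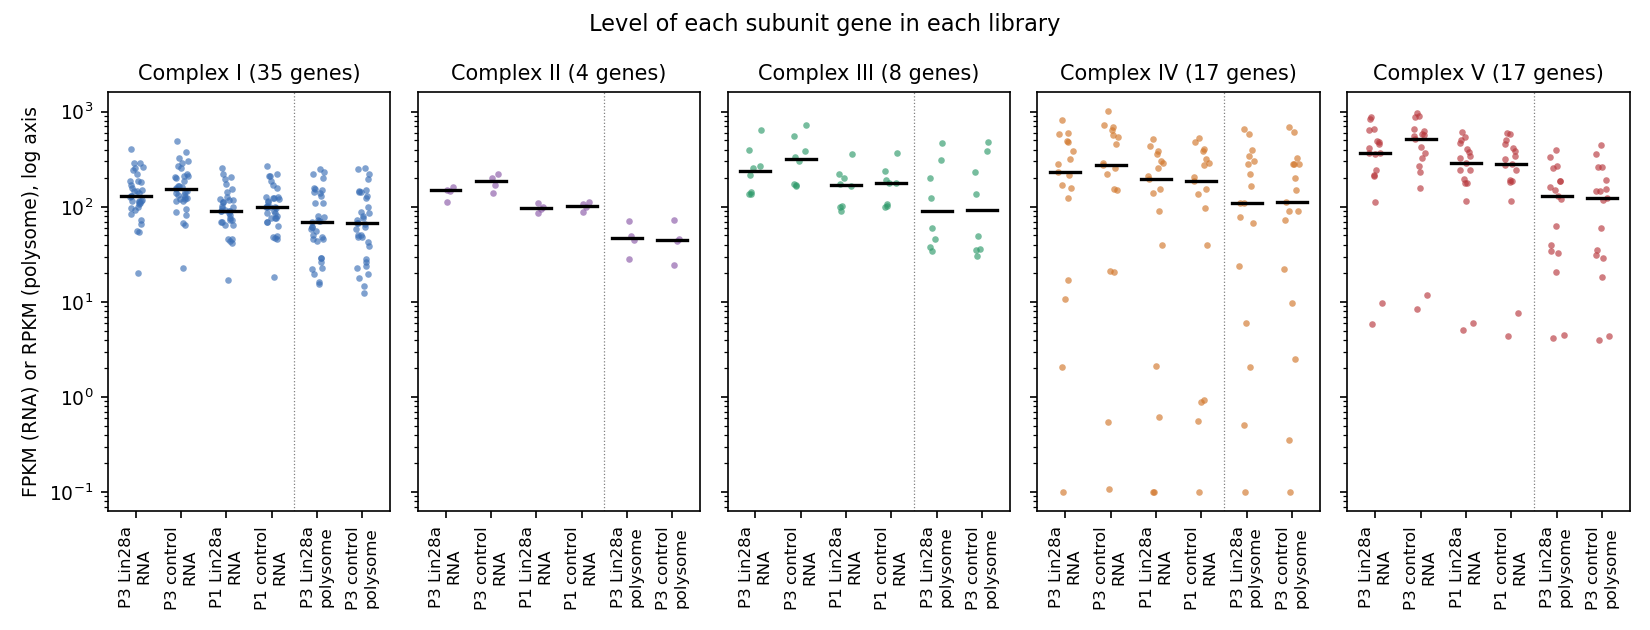
Level of each of the 81 subunit genes in each library, by complex, as FPKM in RNA and RPKM in polysomes on a log axis, with the median of each complex as a bar and values under 0.1 drawn at 0.1. The 4 RNA libraries have the highest medians in P3 control cells for all 5 complexes, and the few genes under 10 belong to complexes IV and V.

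Differences between libraries are given as log2 ratios of values with 1 added, over the genes that reach 1 in a library of the comparison. Counts past 1.5-fold and 2-fold are on that scale, which understates changes of low genes. In Lin28a cells, 79 of 80 subunit genes were higher at P3 than at P1, against 49% of all genes, and the remaining one, Atp5g1, differed by -0.03. Past 1.5-fold were 29 of 80, against 18.2% of all genes, and past 2-fold 5, against 8.38%. In control cells, all 79 genes compared were higher at P3 than at P1, against 49.7% of all genes, 57 past 1.5-fold, against 22.6%, and 9 past 2-fold, against 11.5%. The median ratio was 0.48 in Lin28a and 0.71 in control cells, or 1.40-fold and 1.65-fold, where the median of all genes was -0.015 and -0.0042. The difference was thus modest in size and shared by nearly every gene, and the share past 2-fold was near or below that of all genes.

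Abundant genes in general were higher at P3. Among all genes that reach 50 in a library of the comparison, 57.7% were higher at P3 in Lin28a cells, with a median of 0.13, and 65.1% in control cells, with a median of 0.29. The share past 1.5-fold in that class was 24.3% and 34.6%. When each library was scaled to the same sum, the medians of the subunit genes were 0.25 in Lin28a and 0.38 in control cells, those of all genes were -0.23 and -0.30, and 71 of 80 and 76 of 79 subunit genes were still higher at P3, against 35.5% and 34.1% of all genes. Past 1.5-fold were then 9 of 80 subunit genes in Lin28a, against 12.4% of all genes, and 15 of 79 in control cells, against 14.3%.

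The size of the difference was similar across complexes. Median ratios of P3 over P1 in Lin28a cells were 0.49 for complex I, 0.54 for complex II, 0.55 for complex III, 0.53 for complex IV and 0.35 for complex V. In control cells they were 0.65, 0.83, 0.78, 0.74 and 0.60 in the same order. Complex V was the lowest of the 5 in both cultures, and complexes II and III were among the 3 highest in both. The ratio was larger in control than in Lin28a cells for 71 of the 79 genes compared in both. Across those 79 genes the ratios of both cultures correlated at 0.896 (Pearson) and 0.709 (Spearman), and across the 76 left without tissue isoforms at 0.750 and 0.673, as a description of genes that share libraries and are not replicates. Over all genes, whose ratios spanned a wider range, these values were 0.905 and 0.897. A correlation depends on that range, so these values do not show which set was more alike between cultures. Both cultures were higher at P3 for 78 of the 79 subunit genes. Of 12723 genes at large, 5401 were higher and 5626 lower in both.

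**Figure D2:**
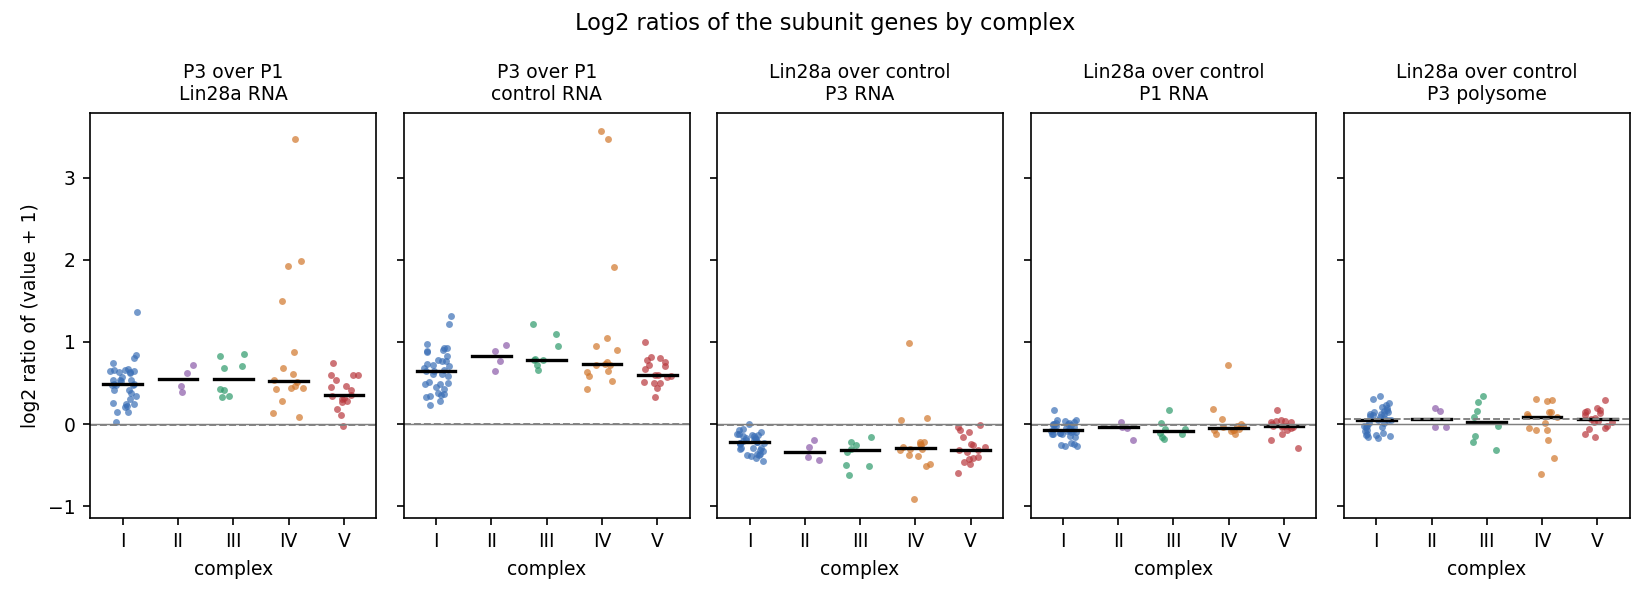
Log2 ratio of each subunit gene by complex in 5 comparisons, with the median of each complex as a bar and the median of all genes as a dashed line. Nearly all points lie above 0 for passage in both cultures and below 0 for Lin28a over control in P3 RNA, while P1 RNA and polysomes centre near 0.

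In complex I, all 35 genes were higher at P3 in both cultures. The 7 core subunits measured here hold the flavin, the iron-sulfur clusters and part of the ubiquinone site, and 28 genes encode accessory subunits. Ndufv1, which binds NADH, was at 65.4 FPKM in P3 Lin28a and 81.8 in P3 control, and at 46.3 in P1 Lin28a and 45.5 in P1 control RNA, and at 22.7 RPKM in Lin28a and 19.7 in control polysomes. Ndufv2, its iron-sulfur partner, was at 83.2 FPKM in P3 Lin28a and 87.7 in P3 control, and at 69.6 in P1 Lin28a and 69.7 in P1 control RNA, and at 61.2 RPKM in Lin28a and 67.3 in control polysomes. Ndufs1, the large iron-sulfur subunit, was at 55.1 FPKM in P3 Lin28a and 67.6 in P3 control, and at 46.3 in P1 Lin28a and 48.1 in P1 control RNA, and at 15.5 RPKM in Lin28a and 14.7 in control polysomes. In each of these 3 genes the P3 libraries lay above both P1 libraries, with P3 control on top. Ndufs7, which carries the last iron-sulfur cluster before ubiquinone, was at 117 FPKM in P3 Lin28a and 148 in P3 control, and at 64.8 in P1 Lin28a and 62.7 in P1 control RNA, and at 46.2 RPKM in Lin28a and 38.5 in control polysomes. Ndufs7 had the largest passage ratio of the core subunits, 0.84 in Lin28a and 1.22 in control cells, and Ndufv2 was among the smallest with 0.25 and 0.33. Also in the core were the iron-sulfur subunit Ndufs8, at 129 FPKM in P3 Lin28a and 159 in P3 control, and at 96.4 in P1 Lin28a and 85.5 in P1 control RNA, and Ndufs3, which binds no cluster, at 131, 154, 90.2 and 98.6 FPKM in that order. In polysomes Ndufs8 was at 45.7 RPKM in Lin28a and 47.9 in control, and Ndufs3 at 22.2 and 22.9.

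Among the accessory subunits of complex I, Ndufv3, which sits on the NADH-oxidising arm, was the one gene past 2-fold in both cultures. It was at 259.8 FPKM in P3 Lin28a and 304 in P3 control, and at 100.4 in P1 Lin28a and 121 in P1 control RNA, with passage ratios of 1.36 in Lin28a and 1.32 in control cells. Its polysome values were 230.4 RPKM in Lin28a and 223 in control. At the other end, Ndufb7, a subunit on the outer face of the membrane arm, was at 114 FPKM in P3 Lin28a and 132 in P3 control, and at 113 in P1 Lin28a and 112 in P1 control RNA, with ratios of 0.02 and 0.24. The lowest level in complex I belonged to Ndufa11, a subunit of the membrane arm, at 20.2 FPKM in P3 Lin28a and 22.5 in P3 control, and at 17.1 in P1 Lin28a and 18.3 in P1 control RNA. The highest was Ndufa3, a small membrane-arm subunit, at 402, 492, 254 and 266 FPKM in the same order. The accessory genes had a median of 0.50 and the core genes of 0.49 in Lin28a cells, and of 0.63 and 0.83 in control cells.

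Complex II consists of the 4 Sdh subunits, which also form the succinate dehydrogenase of the citric acid cycle. Sdha, the flavoprotein that oxidises succinate, was at 114 FPKM in P3 Lin28a and 138 in P3 control, and at 86.3 in P1 Lin28a and 88.3 in P1 control RNA, and at 28.01 RPKM in Lin28a and 24.3 in control polysomes. Sdhb, the iron-sulfur subunit, was at 152 FPKM in P3 Lin28a and 201 in P3 control, and at 109.9 in P1 Lin28a and 108 in P1 control RNA, and at 71.0 RPKM in Lin28a and 72.7 in control polysomes. All 4 genes were past 1.5-fold with passage in control cells, and 2 of the 4 in Lin28a cells. The membrane anchors Sdhc and Sdhd had passage ratios of 0.72 and 0.63 in Lin28a cells and of 0.97 and 0.76 in control cells. Sdhc was at 163 FPKM in P3 Lin28a and 221 in P3 control, and at 98.6 in P1 Lin28a and 113 in P1 control RNA, and Sdhd at 147, 168, 95.2 and 98.6 FPKM in that order. In polysomes Sdhc stood at 44.5 RPKM in Lin28a and 45.8 in control, and Sdhd at 49.1 and 43.7.

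In complex III, all 8 genes were past 1.5-fold with passage in control cells, and 4 of 8 in Lin28a cells. In control cells the largest ratios belonged to small subunits, Uqcr11 with 1.22 and Uqcr10 with 1.10, and their ratios in Lin28a cells were 0.83 and 0.71. Uqcr11 was at 391 FPKM in P3 Lin28a and 552 in P3 control, and at 219.7 in P1 Lin28a and 237 in P1 control RNA. Uqcr10 was at 269 FPKM in P3 Lin28a and 384 in P3 control, and at 164 in P1 Lin28a and 178 in P1 control RNA. For both genes P3 control lay well above P3 Lin28a, and both P3 libraries lay above both P1 libraries. The large core proteins Uqcrc1 and Uqcrc2 had passage ratios of 0.43 and 0.68 in Lin28a cells and of 0.78 and 0.71 in control cells, and the Rieske iron-sulfur protein Uqcrfs1 had 0.42 in Lin28a and 0.65 in control cells. Uqcrc1 was at 136 FPKM in P3 Lin28a and 172 in P3 control, and at 101 in P1 Lin28a and 99.7 in P1 control RNA, and at 37.6 RPKM in Lin28a and 35.4 in control polysomes. Uqcrc2 was at 144 FPKM in P3 Lin28a and 168 in P3 control, and at 89.7 in P1 Lin28a and 102 in P1 control RNA, and at 33.9 RPKM in Lin28a and 30.3 in control polysomes. Uqcrfs1 was at 136 FPKM in P3 Lin28a and 167 in P3 control, and at 101 in P1 Lin28a and 106 in P1 control RNA, and at 60.0 RPKM in Lin28a and 49.8 in control polysomes. The 3 genes thus had similar levels, and the hinge protein Uqcrh, which docks cytochrome c, was the most abundant of the complex, at 644 FPKM in P3 Lin28a and 719.7 in P3 control RNA.

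Complex IV held the genes with the largest passage ratios, and these were tissue isoforms. Of its 17 genes, 10 encode ubiquitous subunits and 5 encode forms best known from muscle, lung or testis. The others are Ndufa4, once assigned to complex I and known as a complex IV subunit, and Cox7a2l, which joins complexes III and IV into supercomplexes. Cox4i2, a form of subunit 4 known from lung and induced by low oxygen, was at 16.9 FPKM in P3 Lin28a and 20.4 in P3 control, and at 0.611 in P1 Lin28a and 0.926 in P1 control RNA. Cox7a1, the heart and skeletal muscle form of subunit 7a, was at 10.8 FPKM in P3 Lin28a and 21.3 in P3 control, and at 2.11 in P1 Lin28a and 0.883 in P1 control RNA. Cox6b2, the testis form of subunit 6b, was at 158 FPKM in P3 Lin28a and 151 in P3 control, and at 39.3 in P1 Lin28a and 39.2 in P1 control RNA. In all 3 genes both P3 libraries lay above both P1 libraries, with ratios in Lin28a cells of 3.47 for Cox4i2, 1.92 for Cox7a1 and 1.98 for Cox6b2, and in control cells of 3.47, 3.56 and 1.92. Cox6a2, the heart and muscle form of subunit 6a, was low throughout, at 2.05 FPKM in P3 Lin28a and 0.544 in P3 control, and at 0.0815 in P1 Lin28a and 0.557 in P1 control RNA, and its ratio of 1.495 in Lin28a cells rests on values near 1.

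The ubiquitous forms remained the main ones in every library. Cox4i2 made up 2.76% of the summed Cox4i1 and Cox4i2 level in P3 Lin28a and 2.87% in P3 control, and 0.157% in P1 Lin28a and 0.226% in P1 control RNA. Cox7a1 made up 4.71%, 7.70%, 1.36% and 0.567% of the sum with Cox7a2 in the same order, and Cox6b2 16.2%, 12.9%, 7.12% and 6.96% of the sum with Cox6b1. The testis form of subunit 6b was therefore the one isoform that held over 10% of its pair in P3 RNA. In polysomes its share was 9.42% in Lin28a and 11.7% in control, the reverse of the order in P3 RNA. Cox4i1 itself, the common form of subunit 4, was at 594 FPKM in P3 Lin28a and 690.5 in P3 control, and at 389 in P1 Lin28a and 408 in P1 control RNA. Cox6a1, the common form of subunit 6a, was at 389.5, 546, 287 and 292 FPKM in that order, and Cox6b1 at 821, 1016, 513 and 525. Cox7a2, the common form of subunit 7a, was at 218, 255, 152 and 155 FPKM, and Cox7a2l at 283, 275, 195 and 205. Among the remaining ubiquitous subunits, Cox5a, which faces the matrix, was at 172 FPKM in P3 Lin28a and 222 in P3 control, and at 140.5 in P1 Lin28a and 135 in P1 control RNA. Cox5b, which binds zinc, was at 234 FPKM in P3 Lin28a and 292 in P3 control, and at 213 in P1 Lin28a and 188 in P1 control RNA. Cox8a, the ubiquitous form of subunit 8, was at 476, 565, 259 and 273 FPKM in the same order and had the largest passage ratios of the ubiquitous genes, 0.87 in Lin28a and 1.05 in control cells. All 10 ubiquitous genes were higher at P3 in both cultures, while Ndufa4 had one of the smallest ratios in Lin28a cells, 0.08, at 319.7 FPKM in P3 Lin28a and 455 in P3 control, and at 302 in P1 Lin28a and 315 in P1 control RNA.

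In polysomes, Cox4i1 was at 339.6 RPKM in Lin28a and 279 in control, Cox6a1 at 301 and 283, Cox6b1 at 653 and 684, Cox7a2 at 166 and 149.97, Cox7a2l at 78.4 and 73.1, Cox5b at 24.1 and 22.0 and Cox8a at 584 and 614 in the same order. The isoforms were the lower partner there too, with Cox4i2 at 2.07 RPKM in Lin28a and 2.51 in control polysomes and Cox6a2 at 0.513 and 0.356.

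**Figure D3:**
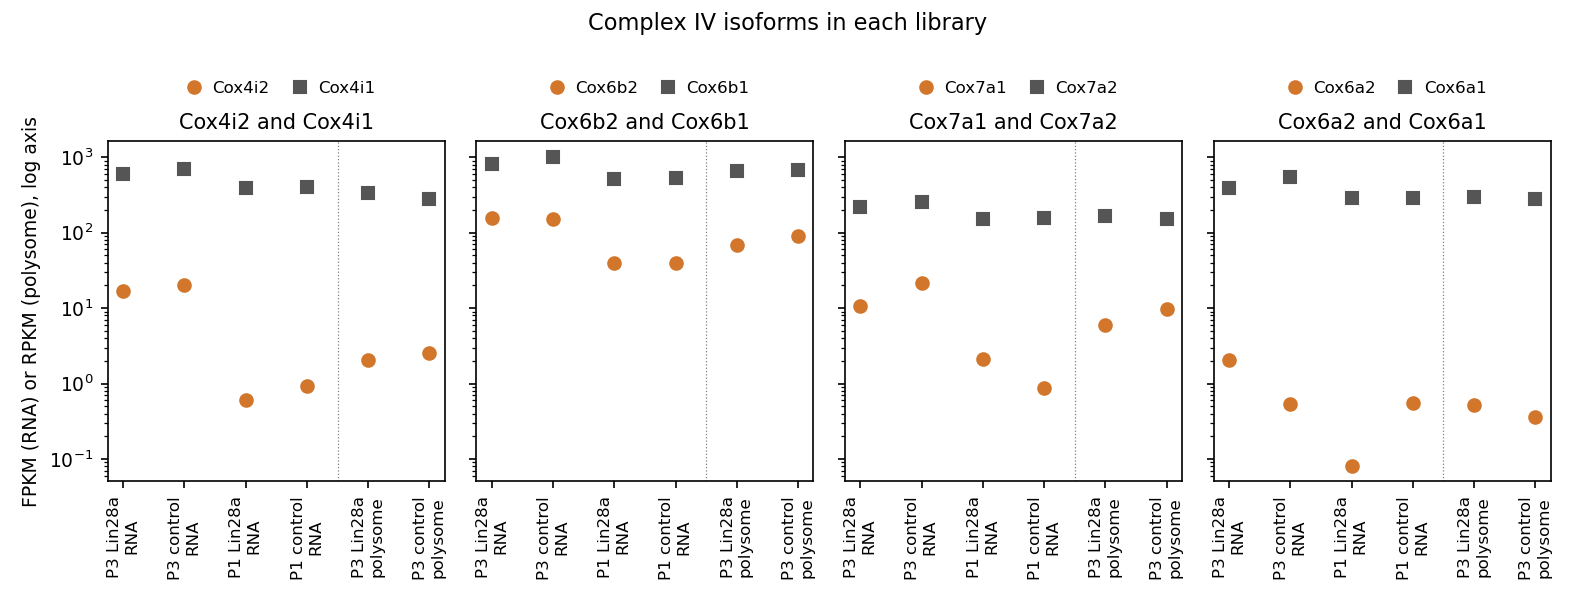
Level of 4 tissue isoforms of complex IV subunits (circles) and of their ubiquitous counterparts (squares) in each library, in FPKM for RNA and RPKM for polysomes on a log axis. Cox4i2, Cox6b2 and Cox7a1 lie higher in both P3 than in both P1 RNA libraries, and every isoform lies below its counterpart in every library.

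In RNA, 4 subunit genes were past 2-fold with passage in both cultures, Cox4i2, Cox6b2, Cox7a1 and Ndufv3. The share of all genes past 2-fold in both was not counted. Within Lin28a cells 6.25% of subunit genes were past 2-fold, against 8.38% of all genes, and within control cells 11.4%, against 11.5%. The DNA just upstream of the start is shown for those of the 4 genes that have an entry in the RefSeq promoter table for GRCm38.p6, with the ubiquitous counterparts of both isoforms for comparison. Each stretch is 250 bases long, ends at the base before the annotated start and reads 5′ to 3′ along the gene. It lies at chr7:30183921-30184170 on the plus strand for Cox7a1, chr9:79759854-79760103 on the minus strand for Cox7a2, chr7:4753095-4753344 on the minus strand for Cox6b2, chr7:30626115-30626364 on the minus strand for Cox6b1 and chr17:31519865-31520114 on the plus strand for Ndufv3. Capitals mark matches, on either strand, to the motifs listed after the sequences.
Cox7a1: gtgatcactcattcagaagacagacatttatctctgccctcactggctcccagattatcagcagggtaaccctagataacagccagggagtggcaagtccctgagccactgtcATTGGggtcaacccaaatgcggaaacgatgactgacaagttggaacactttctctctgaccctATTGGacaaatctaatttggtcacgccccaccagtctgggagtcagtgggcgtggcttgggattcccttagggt
Cox7a2: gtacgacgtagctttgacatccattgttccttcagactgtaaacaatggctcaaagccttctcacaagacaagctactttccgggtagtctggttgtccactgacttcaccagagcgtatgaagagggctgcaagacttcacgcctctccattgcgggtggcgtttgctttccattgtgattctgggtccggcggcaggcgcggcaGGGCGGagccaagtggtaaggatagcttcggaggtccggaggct
Cox6b2: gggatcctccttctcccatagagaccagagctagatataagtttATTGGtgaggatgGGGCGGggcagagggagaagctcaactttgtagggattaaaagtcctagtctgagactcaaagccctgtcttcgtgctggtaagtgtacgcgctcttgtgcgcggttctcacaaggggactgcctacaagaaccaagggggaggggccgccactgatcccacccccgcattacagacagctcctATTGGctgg
Cox6b1: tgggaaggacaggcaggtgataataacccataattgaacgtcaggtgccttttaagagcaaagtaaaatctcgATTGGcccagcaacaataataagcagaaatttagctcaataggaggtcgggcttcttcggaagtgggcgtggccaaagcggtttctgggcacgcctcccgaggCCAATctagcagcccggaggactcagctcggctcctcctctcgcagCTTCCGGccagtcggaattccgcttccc
Ndufv3: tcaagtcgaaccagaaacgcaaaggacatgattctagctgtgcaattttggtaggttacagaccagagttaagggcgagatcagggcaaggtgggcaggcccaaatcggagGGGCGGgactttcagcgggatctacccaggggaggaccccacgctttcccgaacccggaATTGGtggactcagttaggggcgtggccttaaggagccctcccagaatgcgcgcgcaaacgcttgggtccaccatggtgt
The capitals in Cox7a1 are both CCAAT boxes read on the minus strand. Cox7a2 has a GC box, and Cox6b2 a GC box and 2 CCAAT boxes. Cox6b1 has an ETS motif and 2 CCAAT boxes, and Ndufv3 a GC box and a CCAAT box. These lists cover only the stretches shown. The longer windows searched below also take in bases after the start. In those windows, Cox7a1 and Ndufv3 each also had a match to the HIF core, ACGTG. Cox7a2, Cox6b2 and Cox6b1 had no HIF core match there.

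The motifs were searched as exact letters on both strands in windows of 300 bases, 250 before and 50 after the start, and matches of different motifs may overlap. The table held 74 windows for 68 of the 81 subunit genes among 32851 windows in all. The NRF1 motif, TGCGCANGC, was in 17.6% of the windows of subunit genes and in 4.16% of all windows. The GABP or ETS motif, CCGGAAG, was in 21.6% and 8.86%, the YY1 motif, AAGATGGC, in 16.2% and 2.75%, and the ERR motif, AAGGTCA, in 10.8% and 4.72%. These 4 factors are known as regulators of nuclear genes for mitochondrial proteins, and all 4 motifs were more frequent in the windows of subunit genes. More general motifs differed less between subunit genes and all windows, with 27.0% and 19.6% for the HIF core ACGTG, 39.2% and 35.7% for the GC box GGGCGG, and 43.2% and 37.4% for the CCAAT box CCAAT. The median GC content was 57.5% in the windows of subunit genes and 52.7% in all windows. A match is a description of these letters and shows neither a bound site nor a cause.

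Complex V genes had the smallest median passage ratios, with levels among the highest. In the F1 head, Atp5a1, the alpha subunit, was at 636 FPKM in P3 Lin28a and 651 in P3 control, and at 465 in P1 Lin28a and 457 in P1 control RNA, and at 159.8 RPKM in Lin28a and 148 in control polysomes. Atp5b was at 881 FPKM in P3 Lin28a and 979 in P3 control, and at 608 in P1 Lin28a and 593 in P1 control RNA, and at 253 RPKM in Lin28a and 264 in control polysomes. Atp5c1, the gamma subunit that turns inside the head, was at 366 FPKM in P3 Lin28a and 368 in P3 control, and at 241 in P1 Lin28a and 247 in P1 control RNA, and at 122 RPKM in Lin28a and 124 in control polysomes. Between Lin28a and control cells these 3 central subunits differed by 0.15 log2 units or less at either passage. Atp5e, the epsilon subunit, was just past 2-fold in control cells, at 366 FPKM in P3 Lin28a and 555 in P3 control, and at 241 in P1 Lin28a and 277 in P1 control RNA. Atp5s and Atp5sl are named for complex V without being its subunits, but the symbol rule takes them in and the complex V values include them. They were low, at 9.63 and 5.90 FPKM in P3 Lin28a, 11.9 and 8.51 in P3 control, 6.05 and 5.06 in P1 Lin28a and 7.65 and 4.40 in P1 control RNA.

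Subunit c, which forms the membrane ring of the ATP synthase, is encoded by 3 genes whose mature proteins are the same. Atp5g1 was at 20.8 RPKM in Lin28a and 18.1 in control polysomes, and in RNA at 112 FPKM in P3 Lin28a and 157 in P3 control, and at 114 in P1 Lin28a and 116 in P1 control cells. Atp5g2 was at 39.3 RPKM in Lin28a and 35.2 in control polysomes, and in RNA at 836 FPKM in P3 Lin28a and 875 in P3 control, and at 501 in P1 Lin28a and 509 in P1 control cells. Atp5g3 was at 189 RPKM in Lin28a and 154 in control polysomes, and in RNA at 477 FPKM in P3 Lin28a and 628 in P3 control, and at 373 in P1 Lin28a and 386 in P1 control cells. The gene with the largest share was Atp5g3 in polysomes and Atp5g2 in RNA. Atp5g2 held 15.8% of the summed level of the 3 genes in Lin28a polysomes and 17.0% in control polysomes, but 58.7% in P3 Lin28a and 52.7% in P3 control RNA. Atp5g3 held 75.8% in Lin28a polysomes and 74.3% in control polysomes, but 33.5% in P3 Lin28a and 37.8% in P3 control RNA.

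At P3, the subunit genes were lower in Lin28a than in control RNA. Of 80 genes, 76 were lower, against 51.5% of all genes, and 3 were lower past 1.5-fold, against 6.35%. The median ratio was -0.27, or 1.21-fold lower, and that of all genes was -0.01. No subunit gene was lower past 2-fold. The medians were -0.22 for complex I, -0.34 for complex II, -0.32 for complex III, -0.30 for complex IV and -0.31 for complex V, and all members of complexes II, III and V were lower. Abundant genes leaned the same way, since 66.1% of all genes that reach 50 were lower in Lin28a, with a median of -0.12. When libraries were scaled to the same sum, the subunit median was -0.16, where that of all genes was 0.09, and 69 of 80 subunit genes were lower, against 38.8% of all genes, and 1 was lower past 1.5-fold, against 4.11%.

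The 3 genes lower past 1.5-fold were Cox7a1 with -0.92, Uqcrq, a small complex III subunit near the ubiquinone site, with -0.62, and Atp5e with -0.60. Uqcrq was at 217 FPKM in P3 Lin28a and 333 in P3 control, and at 172 in P1 Lin28a and 192 in P1 control RNA, so its P3 Lin28a level lay nearer to P1 than to P3 control. Higher in Lin28a were Cox6a2 with 0.98, Cox6b2 with 0.07, Cox7a2l with 0.04 and Ndufb4 with 0.00. Of these 4, Cox6a2 is the low gene described above, and the other 3 differed by little. Over the 4 RNA libraries, P3 control was the highest for 76 of 80 genes, against 37.1% of all genes and 51.0% of those that reach 50. For 75 of 80 the order was P3 control, P3 Lin28a and then both P1 libraries, against 29.6% and 43.7%. The comparison of Lin28a with control at P3 and that of P3 with P1 in control cells share the P3 control library, so a high P3 control value enters both.

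At P1, Lin28a and control cells differed less. Of 78 genes, 56 were lower in Lin28a, against 51.6% of all genes, with a median of -0.05, and 0 were lower past 1.5-fold, against 0.963%. Cox7a1 was the one gene past 1.5-fold, higher in Lin28a with 0.72, at 2.11 FPKM in Lin28a against 0.883 in control cells. The passage ratio was lower in Lin28a than in control cells for 71 of 80 genes, against 50.4% of all genes, with a median difference of -0.21, and 2 were lower past 1.5-fold, against 4.86%. Those were Cox7a1 with -1.64 and Atp5sl with -0.63, and at the other end Cox6a2 had a difference of 1.51. With libraries scaled to the same sum, 58 of 80 subunit genes were lower, against 38.9% of all genes, and 1 was lower past 1.5-fold, against 3.40%. By complex, the median difference was -0.13 for complex I, -0.25 for complex II, -0.37 for complex III, -0.19 for complex IV and -0.30 for complex V. All 4 genes of complex II and all 8 of complex III had the smaller passage ratio in Lin28a cells.

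In P3 polysomes, the subunit genes differed little between Lin28a and control. Of 79 genes, 49 were higher in Lin28a, against 62.8% of all genes, and 0 were higher past 1.5-fold, against 3.69%. The median ratio was 0.06 for subunit genes and for all genes alike, and with libraries scaled to the same sum it was -0.030 for subunit genes, with 34 of 79 higher, and -0.023 for all genes, with 45.8% higher. The highest ratios were 0.35 for Ndufa11, 0.34 for Uqcrb, a small complex III subunit, and 0.31 for both Cox5a and Ndufb3. The lowest were -0.61 for Cox7a1, -0.42 for Cox6b2 and -0.32 for Uqcr10. Uqcrb was at 45.7 RPKM in Lin28a and 35.8 in control polysomes, Cox5a at 111 and 89.5, Cox7a1 at 6.001 and 9.67, and Cox6b2 at 67.9 and 90.9 in the same order. Cox7a1 was thus lower in Lin28a in both assays at P3, while Uqcrb and Cox5a were lower in RNA and higher in polysomes.

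The polysome to RNA ratio, meaning the polysome log2 ratio minus the P3 RNA log2 ratio, was higher in Lin28a than in control cells for 75 of 80 genes, against 59.3% of all genes. The median difference was 0.31 for the subunit genes and 0.07 for all genes, and 7 were higher past 1.5-fold, against 6.14%. By complex the medians were 0.28, 0.38, 0.40, 0.34 and 0.30 for complexes I to V. This difference contains the RNA ratio, and 48 of 79 genes were lower in P3 RNA and higher in polysomes of Lin28a cells, against 24.7% of all genes and 32.8% of those that reach 50. Abundant genes again leaned the same way, with 71.9% of all genes that reach 50 higher and a median of 0.18. With libraries scaled to the same sum, the subunit median was 0.10, that of all genes was -0.12, and 58 of 80 subunit genes were higher, against 35.9% of all genes, and 0 were higher past 1.5-fold, against 2.90%. The highest differences were 0.80 for Ndufa4, 0.69 for Atp5g3 and 0.68 for both Atp5g1 and Cox5a, and the lowest were -0.82 for Cox6a2 and -0.49 for Cox6b2. Ndufa4 was at 399 RPKM in Lin28a and 326 in control polysomes, the reverse of its order in RNA.

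**Figure D4:**
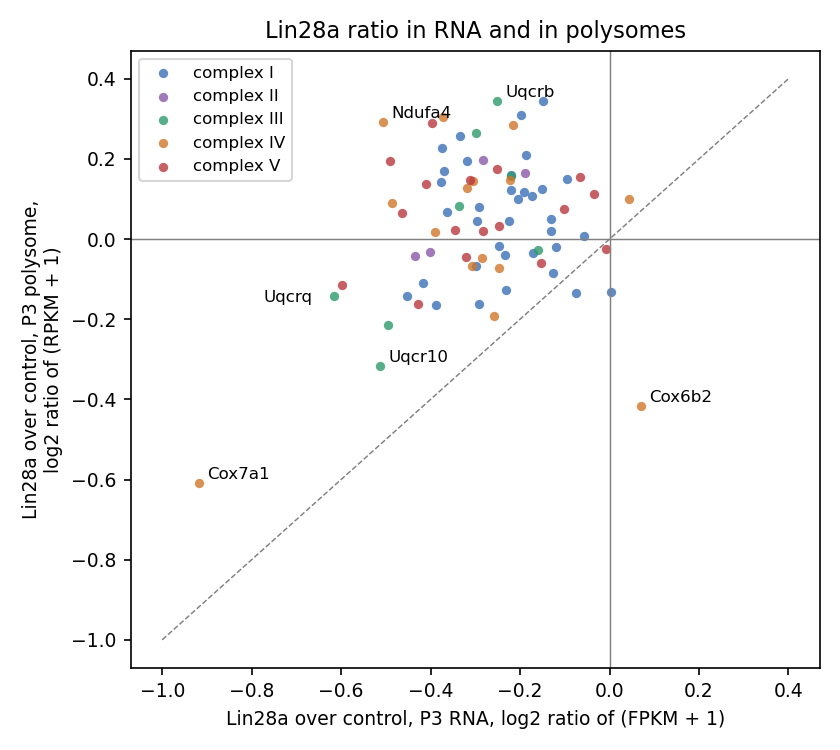
Log2 ratio of Lin28a over control for each subunit gene at P3, in RNA on the horizontal and in polysomes on the vertical axis, coloured by complex, with the line of equal ratios dashed. Most points lie left of 0 and above the dashed line, Cox7a1 is low on both axes, and Cox6a2, under 1 RPKM in both polysome libraries, is not drawn.

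Sdha, Ndufb3 and Ndufb8 are known as mRNAs bound by Lin28a in mouse fibroblasts. Sdha was at 28.01 RPKM in Lin28a and 24.3 in control polysomes. Ndufb3, an accessory subunit of the complex I membrane arm, was at 109.9 RPKM in Lin28a and 88.5 in control polysomes, and at 145 FPKM in P3 Lin28a and 166 in P3 control, and at 93.3 in P1 Lin28a and 100.4 in P1 control RNA. Ndufb8, another of these, was at 202 RPKM in Lin28a and 196 in control polysomes, and at 180.5, 222, 152 and 156 FPKM in RNA in the same order. All 3 were higher in Lin28a polysomes and lower in Lin28a RNA at P3, a pattern held by 48 of 79 subunit genes. The polysome log2 ratio of Ndufb8, 0.04, lay below the median of all genes, 0.06. Differences in the polysome to RNA ratio were 0.48 for Sdha, 0.51 for Ndufb3 and 0.34 for Ndufb8. All 3 lie above the subunit median of 0.31, and none was tested.

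The assays were processed differently and no source used here names the gradient fractions taken, so ratios of polysome to RNA values are read beside those of all genes, and pairs of single values are given as values only. The polysome value was lower than the RNA value past 2-fold for 37 of 80 subunit genes in Lin28a, against 23.8% of all genes, and for 52 of 79 in control, against 28.8%. Median ratios were -0.94 in Lin28a and -1.29 in control, where those of all genes were -0.41 and -0.49. Among all genes that reach 50 the medians were -1.06 and -1.29, so the subunit genes lay close to other abundant genes. The ratios of the single genes ranged widely and were alike in both cultures, with a Spearman rho of 0.965 over 79 genes and of 0.931 over all genes as a description.

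Complex V and complex II were lowest in polysomes relative to RNA, with medians of -1.33 and -1.71 in Lin28a and of -1.56 and -2.08 in control, and complex IV was highest, with -0.77 in Lin28a and -1.06 in control. The lowest genes were Atp5g2, with -4.38 in Lin28a and -4.60 in control, Atp5l, subunit g of the ATP synthase, with -3.87 and -4.30, Ndufa12, a complex I accessory subunit, with -3.56 and -3.83, and Atp5h, subunit d of the ATP synthase stalk, with -3.54 and -4.00. Ndufa12 was at 19.7 RPKM in polysomes and 243 FPKM in RNA of Lin28a cells, and at 18.01 RPKM and 270.0 FPKM in control cells. The highest were Cox7b, a small complex IV subunit, with 0.82 in Lin28a and 0.37 in control, Ndufb7 with 0.45 and 0.14, and Ndufa6, a complex I accessory subunit, with 0.41 and 0.27. Cox7b was at 221 RPKM in polysomes and 125 FPKM in RNA of Lin28a cells, and at 199 RPKM and 154 FPKM in control cells. Subunits of the same complex therefore stood at both ends of the range.

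Members with a named pseudogene had a lower median ratio, but this did not hold gene by gene. The 9 members that have a named pseudogene in the reference name table, Ndufa12, Ndufs5, Uqcrh, Cox5b, Cox7c, Atp5c1, Atp5f1, Atp5k and Atp5l, had a median ratio of -1.87 in Lin28a and -2.21 in control, and the others of -0.90 and -1.25. Near-identical copies can split reads, so the levels of these 9 are uncertain, and the part of such copies in the ratio was not tested. Only pseudogenes that carry the symbol of the gene with the ending -ps were counted, so other members may have copies under other names. Cytosolic ribosomal protein genes, for which named pseudogenes were not counted, had medians of -4.00 in Lin28a and -4.07 in control.

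**Figure D5:**
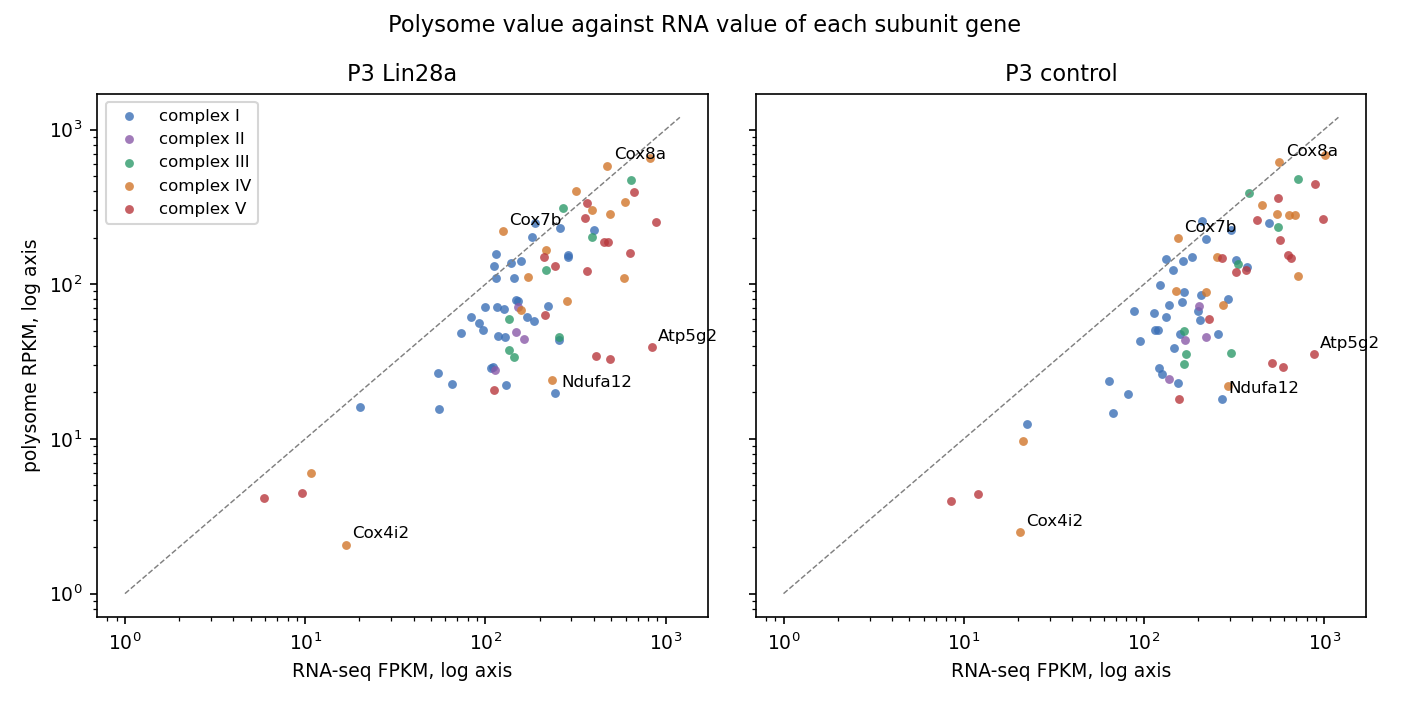
Polysome RPKM against RNA FPKM of each subunit gene at P3 on log axes, for Lin28a cells on the left and control cells on the right, with the line of equal values dashed and genes under 1 on an axis not drawn. Most points lie below the line in both panels, with Atp5g2, Ndufa12 and Cox4i2 far below it, and Cox7b lies above it.

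Other gene lists are given for their passage ratios, where 49% of all genes were higher at P3 in Lin28a and 49.7% in control cells. Glycolysis genes had a median of 2.21 in Lin28a and 1.85 in control cells, with all 21 genes higher at P3 in both. The 18 hypoxia response genes had medians of 1.94 and 1.69, again all higher. The subunit medians, 0.48 and 0.71, were well below these. Of 18 citric acid cycle and pyruvate dehydrogenase genes, 15 were higher in Lin28a with a median of 0.27 and 17 in control with 0.45. Of 36 assembly factors, which build the complexes and are no part of them, 23 were higher in Lin28a with a median of 0.09 and 30 in control with 0.32. Mitochondrial ribosomal protein genes had medians of 0.05 in Lin28a, with 41 of 76 higher, and 0.22 in control, with 55 of 76 higher, and cytosolic ribosomal protein genes had 0.45, with 72 of 77 higher, and 0.39, with 74 of 77 higher.

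Regulators of mitochondrial biogenesis did not move with the subunits as a group, with 6 of 14 higher at P3 in Lin28a cells and 5 of 14 in control cells, and medians of -0.15 and -0.17. Esrra, the nuclear receptor ERR alpha, was at 13.4 FPKM in P3 Lin28a and 19.5 in P3 control, and at 10.9 in P1 Lin28a and 8.57 in P1 control RNA. Pprc1, a coactivator of the PGC-1 family, was at 4.24 FPKM in P3 Lin28a and 3.39 in P3 control, and at 13.5 in P1 Lin28a and 11.1 in P1 control RNA. Tfam, which packages and transcribes mitochondrial DNA, was at 11.3, 10.0, 16.1 and 14.5 FPKM in the same order. Esrra thus had the same order of the P3 libraries as most subunit genes, while Pprc1 and Tfam were lower in both P3 than in both P1 libraries.

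Between Lin28a and control at P3, several lists leaned the same way as the subunits, inside and outside mitochondria, where 51.5% of all genes were lower in Lin28a. Lower in Lin28a were 19 of 21 glycolysis genes with a median of -0.22, 14 of 18 hypoxia response genes with -0.30, 15 of 18 citric acid cycle genes with a median of -0.26, 28 of 36 assembly factors with -0.11, and 55 of 76 mitochondrial ribosomal protein genes with -0.13. Cytosolic ribosomal protein genes had 26 of 76 lower and a median of 0.05, and biogenesis regulators 5 of 14 lower and a median of 0.07. At P1 the assembly factors and the mitochondrial ribosomal protein genes lay on the other side, with 29 of 36 and 53 of 76 higher in Lin28a and medians of 0.09 and 0.07, and the subunit median there was -0.05. Glycolysis and hypoxia response genes were already lower in Lin28a at P1, 19 of 21 and 17 of 17, with medians of -0.39 and -0.42. Of the citric acid cycle genes, 12 of 18 were lower at P1, with a median of -0.03. Of all genes, 51.6% were lower in Lin28a at P1. Cytochrome c itself, Cycs, which carries electrons to complex IV, was at 29.8 FPKM in P3 Lin28a and 46.2 in P3 control, and at 46.7 in P1 Lin28a and 44.3 in P1 control RNA, with P3 Lin28a the lowest of the 4. Cyc1, the cytochrome subunit of complex III that falls outside the symbol rule, was at 132, 165, 109 and 107 FPKM in the same order.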

How the data were processed

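RNA-seq values were deposited by the authors as 1 FPKM value per RefSeq gene, and polysome values in the same layout, read here as deposited RPKM, with another floor than the RNA-seq values. The file headers do not name either unit. Bowtie 1.0.0, TopHat2 2.0.6, Cufflinks 2.1.1 and mm9 are named per the submitters' processing notes, with no role. Groups were taken from the sample titles, with 1 library each, and 4 small RNA libraries were not used. Total depth is unknown, so no counting interval is given.

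Genes at 1 or more in at least 1 library of a comparison entered it as log2 ratios of values plus a pseudocount of 1, with counts of any size, past 1.5-fold and past 2-fold, beside the same over all genes tested. The procedure was tested on simulated data, with a known shift put on the members in the passage comparison of control cells. That simulation held no change in the composition of a library and no polysome values, so it does not address these. All 81 members matched the RefSeq name table by accession. That table and the promoter table are on GRCm38.p6, and served for names and promoter sequences only. Named were the core subunits, isoform sets, up to 3 members at each end of each comparison, any member past 2-fold (in the polysome over RNA comparisons, where many were, only their number is given), and 3 mRNAs known to be bound by Lin28a. The values of 1 core subunit are not reported here. The genes named from other lists, the highest or lowest levels and the pseudogene members were added after values were seen. The members and lists were chosen with earlier results of these data known. Alternatives were another pseudocount, other filters and other scalings. Computation used pandas 2.3.3, numpy 2.4.6 and scipy 1.17.1 under Python 3.11.15, and figures matplotlib 3.10.9.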

Additional observations from a re-analysis of the deposited data

Results flagged for a closer look

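Cox7a1 differed in direction between passages. Its ratio of Lin28a over control was 0.72 at P1, with 2.11 FPKM in Lin28a and 0.883 FPKM in control cells, and -0.92 at P3, with 10.8 FPKM in Lin28a and 21.3 FPKM in control cells. With 1 library per group the difference between passages was not tested, and the P1 values lie near 1.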

How the results depend on the processing

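Of 256 recomputed values, 232 stayed close to those reported (medians within 0.1, counts within 1.5 times), 23 moved and 1 changed sign. This tally is lenient, since many of the 232 were counts of 0 that stayed at 0. With libraries scaled to the same sum, 34 instead of 49 of 79 genes were higher in Lin28a polysomes. The median difference in passage ratio became -0.11 instead of -0.21 under that scaling. Both changes still counted as close. Scaling each library to the same sum, an alternative added after seeing the data, made the polysome median of Lin28a over control -0.030, which is the sign change. It also moved the median to -0.16 for Lin28a over control in P3 RNA, 0.38 for P3 over P1 in control, 0.25 for P3 over P1 in Lin28a and 0.10 for the polysome to RNA ratio. The same scaling left 1 gene lower past 1.5-fold with Lin28a in P3 RNA, 15 higher past 1.5-fold and 3 past 2-fold with passage in control, 9 past 1.5-fold with passage in Lin28a, 1 for the passage ratio and 0 for the polysome to RNA ratio. With upper quartile scaling the count past 1.5-fold was 1 for Lin28a in P3 RNA, 1 for the passage ratio and 1 for the polysome to RNA ratio, with medians of 0.60 for passage in control and 0.19 for the polysome to RNA ratio. Taking off the median of all genes left 4 genes past 1.5-fold in the polysome to RNA ratio. Under 5 or more in every library, and under 50 or more in at least 1 (added), 2 genes were past 2-fold with passage in Lin28a and 0 past 1.5-fold or 2-fold in the passage ratio, because low genes were no longer compared. In the second of these, 28 of 52 genes were higher in Lin28a polysomes. The 50 or more filter and the exclusion of genes with a named pseudogene were also added after seeing the data. No paired analysis was possible because each group had 1 library. For the same reason no replicate could be left out. A comparison limited to longer proteins was not run, since no protein sequences were used here.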

Other observations

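Ndufa4l2, a paralog of Ndufa4 known to be induced by low oxygen and not counted among the subunits, was at 59.6 FPKM in P3 Lin28a and 42.2 in P3 control, and at 0.352 in P1 Lin28a and 0.869 in P1 control RNA. Its passage ratios were 5.49 in Lin28a and 4.53 in control cells, and its ratio of Lin28a over control in P3 RNA was 0.49. In polysomes it was at 1.15 RPKM in Lin28a and 0.926 in control, and its log2 ratio of polysome over RNA was -4.82 in Lin28a and -4.49 in control, where the medians of all genes were -0.41 and -0.49.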
